A study of Mus musculus with 8 samples.

Results

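Liver sinusoidal endothelial genes were followed in livers with and without Abhd15, for 10 genes of the 22180 that the array measures through a transcript cluster with a single gene symbol. A transcript cluster gathers the probes of a transcribed locus. The genes were Lyve1, Stab1, Stab2, Ehd3, Clec4g, Fcgr2b, Kdr, Flt4, Gpr182 and Oit3, taken by symbol. The rule for a gene with several clusters was to keep the one with the highest mean over all 8 arrays, and since each of the 10 genes had 1 cluster, no level decided the choice. The list was chosen by symbol with the KO and WT log2 values of these 8 arrays already known, and the KO minus WT difference is counted among the values used for the choice. That difference is therefore a description for Lyve1 and the other 9 genes and supports nothing, and the adjusted p beside it only places each gene in the fit over all genes.

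Livers of 8 male C57BL/6J mice were compared, 3 from wild types (WT) and 5 from knockouts (KO) of Abhd15, an alpha/beta hydrolase domain gene known mainly from fat cells. Both groups ate normal chow and were refed for 1 hour after an overnight fast, and 14 weeks is the age in the design text but the longest time on chow in the labels. The sources used here do not say which part of Abhd15 was deleted, or whether in all cells. Each sample is labelled as liver of 1 mouse and was read on 1 Mouse Gene 2.0 ST array, in log2 expression.

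The sinusoids are the capillaries of the liver lobule. Their endothelial cells have open pores and no continuous basement membrane, and they clear macromolecules from blood, hyaluronan and small immune complexes among them, through scavenger receptors, C-type lectins and Fc receptors. LYVE1 is a hyaluronan receptor best known from lymphatic vessels and is also made by sinusoidal endothelium of the middle of the lobule and by some tissue macrophages.

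Array medians ran from 2.99 to 3.05, and arrays correlated pairwise at 0.978 to 0.985 over clusters. KO arrays 1 and 2 stood apart on the first principal component, and KO array 4 on the second. All 12 immediate early genes of a list had a higher KO mean (median difference 0.75, or 0.18 with 8 of 12 higher without KO arrays 1 and 2), and their mean level was 6.64 and 6.87 in KO arrays 1 and 2 against 5.10 to 5.36 in the other KO arrays and 5.01 to 5.12 in WT. Abhd15 itself had a mean of 5.64 ± 0.18 (SD, n = 3) in the WT livers against 5.12 ± 0.08 (SD, n = 5) in the KO livers, with no overlap. Differences are log2 KO minus WT with limma's standard error (SE), and adjusted p is limma's with Benjamini-Hochberg adjustment over 23521 single-symbol clusters. For Abhd15 the difference was -0.52 (SE 0.13, adjusted p = 0.795), so the deleted gene was not called either. KO arrays all below the WT arrays were found in 2.44% of all clusters.

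Lyve1 read higher in every KO liver than in any WT liver, with means 1.57-fold apart, while the other 9 genes lay between 0.81-fold and 1.13-fold of WT and overlapped between the genotypes. No gene of the 10 passed an adjusted p of 0.05 (0 of 10, against 0% of all clusters, with limma), and 1 of 10 had an unadjusted p under 0.05, against 6.08% of all clusters. The KO mean was lower in 5 of the 10 genes, against 50.4% of all clusters and 59.9% of the 7699 brighter clusters, with a mean of 5 or more. Their median difference was -0.02, against -0.04 over those 7699 clusters. With 1 array left out at a time, 4 to 7 of the 10 genes had a lower KO mean. Groups without overlap were found in 1 of 10 genes, against 4.43% of all clusters and 6.05% of the brighter ones. In whole liver, fewer cells of a type and less RNA per cell cannot be told apart.

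**Figure D1:**
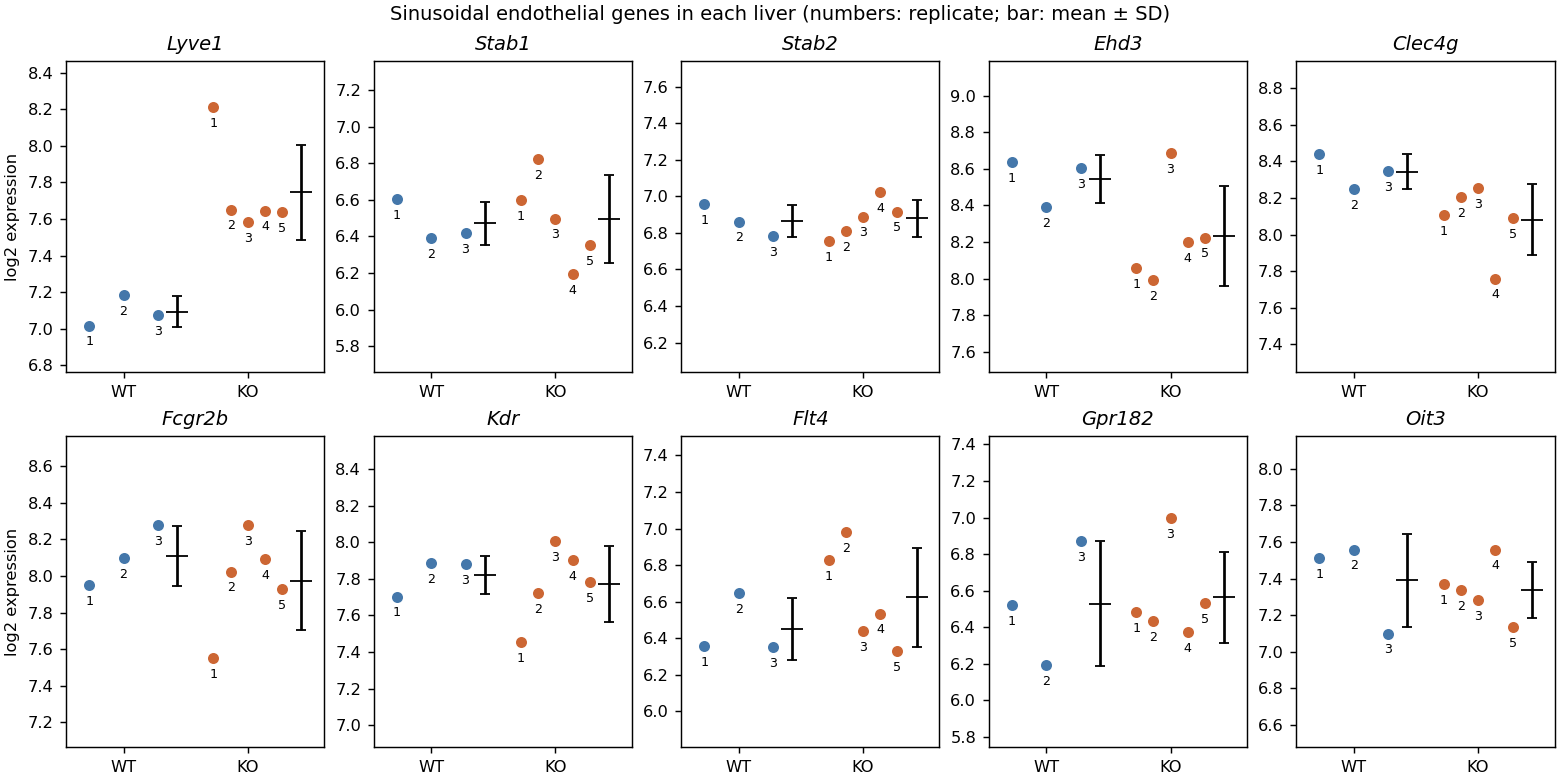
Log2 expression of the 10 sinusoidal endothelial genes (vertical axes, each spanning the same range) in 3 WT and 5 KO livers, with replicate numbers under the points and the mean ± SD as a bar. For Lyve1 the KO points, at 7.58 to 8.21, lie above the WT points, at 7.02 to 7.18, and in the other 9 panels the groups overlap.

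Among the receptors that bind hyaluronan, Lyve1 stood apart from Stab2. Lyve1 read 7.02, 7.18 and 7.08 in the WT arrays and 8.21, 7.65, 7.58, 7.65 and 7.64 in the KO arrays. All 5 KO values were above all WT values, KO array 1 was the highest, and the other 4 KO arrays lay within 7.58 to 7.65. Mean levels were 7.09 ± 0.08 (SD, n = 3) for WT against 7.75 ± 0.26 (SD, n = 5) for KO, with a difference of 0.65 (SE 0.16, 95% interval 0.29 to 1.02, adjusted p = 0.795). The difference was 0.54 without KO array 1 and 0.53 without KO arrays 1 and 2. KO arrays 1 and 2 were also the arrays with high immediate early genes, though Lyve1 stood out in KO array 1 only. The mean of that list went with Lyve1 at r = 0.556 in deviations from the group means over 8 arrays. Over the 10 genes this r ran from -0.748, for Stab2, to 0.881, for Flt4. The part of the immediate early genes in the Lyve1 value was not tested. Over all clusters, 1.99% had KO arrays all above the WT arrays. Of the 7699 brighter clusters, 47 had a larger positive difference than Lyve1, among them no other gene of the 10.

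Stab2, the main hyaluronan scavenger receptor of the sinusoids, read 6.96, 6.86 and 6.78 in WT and 6.76, 6.81, 6.89, 7.02 and 6.92 in KO. The groups overlapped, with KO array 1 just below and KO array 4 above the WT range, and the range of 0.27 over all 8 arrays was the narrowest of the 10 genes. The difference was 0.01 (SE 0.12, 95% interval -0.26 to 0.29, adjusted p = 0.993), so the interval reaches from 0.84-fold to 1.22-fold. Stab1, the related receptor that also takes up modified lipoproteins, read 6.61, 6.39 and 6.42 in WT and 6.601, 6.82, 6.50, 6.20 and 6.35 in KO. KO array 2 was its highest value and KO array 4 its lowest, on both sides of the WT values. Its difference of 0.02 (SE 0.16, adjusted p = 0.99) became -0.12 without KO arrays 1 and 2.

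The value of Lyve1 was also set against the rest of the list, and against marker lists, within each array. Lyve1 minus the mean of the other 9 genes was -0.39, -0.18 and -0.33 in WT and 0.97, 0.28, 0.10, 0.35 and 0.38 in KO, a shift of 0.72 with no overlap. Against the mean of 20 general endothelial markers it was 1.65, 1.68 and 1.56 in WT and 2.85, 2.27, 2.05, 2.25 and 2.19 in KO, a shift of 0.69, again with no overlap. Against the mean of 13 Kupffer cell markers the groups overlapped, from 0.77 to 1.26 in WT and from 0.86 to 2.01 in KO, with a shift of 0.52. The mean of the other 9 genes by itself ran from 7.36 to 7.41 in WT and from 7.25 to 7.48 in KO, a difference of -0.06. Lyve1 alone had a gap of 0.399 between its highest WT and lowest KO value. The means of the other 9 genes and of the general endothelial markers spread less than that. The offsets against them could therefore not overlap, and their separation adds nothing to that of Lyve1. These offsets hold the same Lyve1 values as above and are a description too, and only their shift between arrays can be read, since levels of different probes cannot be compared.

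Clec4g and Fcgr2b bind glycans and IgG at the sinusoidal surface. Clec4g, the lectin also called LSECtin, read 8.439, 8.248 and 8.347 in WT and 8.105, 8.204, 8.253, 7.759 and 8.089 in KO. The groups overlapped by 0.005, between WT array 2 and KO array 3, and KO array 4 was the lowest. The difference was -0.26 (SE 0.14, 95% interval -0.58 to 0.06, adjusted p = 0.848), and -0.18 without KO array 4. Fcgr2b, the inhibitory IgG receptor, which also occurs on B cells and macrophages, read 7.95, 8.10 and 8.28 in WT and 7.55, 8.02, 8.28, 8.09 and 7.93 in KO. KO array 1 was the lowest, KO array 5 lay just below the WT range and KO array 3 just above it. Its difference of -0.13 (SE 0.17, adjusted p = 0.929) was -0.03 without KO array 1 and -0.00933 without KO arrays 1 and 2. The other measured Fc receptor genes, Fcgr1, Fcgr3, Fcgr4, Fcgrt and Fcer1g, showed 4 lower and 1 higher KO means with a median of -0.01. Without WT array 3, or without KO array 5, 1 was lower and 4 were higher. Fcgrt, the neonatal Fc receptor that recycles IgG and albumin, had a difference of -0.02 (SE 0.12), Fcgr1 one of -0.03 (SE 0.20) and Fcer1g, the shared signalling chain, one of 0.10 (SE 0.22).

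The receptors for vascular endothelial growth factors gave no call either. Kdr (VEGFR2), which carries the main VEGFA signal, read 7.70, 7.88 and 7.88 in WT and 7.46, 7.72, 8.01, 7.90 and 7.78 in KO. KO array 1 was the lowest and KO array 3 the highest of the 8. The difference was -0.05 (SE 0.15, 95% interval -0.38 to 0.28, adjusted p = 0.978), and 0.07 without KO arrays 1 and 2. Flt4 (VEGFR3), which binds VEGFC and VEGFD, read 6.36, 6.65 and 6.35 in WT and 6.83, 6.98, 6.44, 6.54 and 6.33 in KO. Its 2 highest values were KO arrays 1 and 2, the arrays with the high immediate early genes. The difference of 0.17 (SE 0.17, adjusted p = 0.906) was -0.02 without them.

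Of the 15 further genes of the VEGF and angiopoietin pathway, 7 had a higher and 8 a lower KO mean, with a median of -0.05, and 0 passed limma's adjusted threshold, or an unadjusted p under 0.05. Nrp2, a co-receptor for VEGFC, read 6.77, 6.79 and 6.30 in WT and 5.76, 6.00, 6.58, 6.29 and 6.69 in KO, a difference of -0.36 (SE 0.23, adjusted p = 0.87). Flt1, which binds VEGFA as well, had a difference of 0.21 (SE 0.18), with its highest value, 6.06, in KO array 5. Angpt1, the ligand of the Tek receptor, was dim, with a mean of 2.82, and had a difference of -0.29 (SE 0.24).

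Ehd3, Gpr182 and Oit3 mark this endothelium through other functions. Ehd3, an ATPase of endocytic membrane traffic, read 8.63, 8.39 and 8.61 in WT and 8.06, 7.99, 8.69, 8.20 and 8.22 in KO. KO arrays 1, 2, 4 and 5 lay below all WT arrays, and KO array 3 above all of them. The difference was -0.31 (SE 0.17, 95% interval -0.69 to 0.07, adjusted p = 0.848), and -0.17 without KO arrays 1 and 2. The other family members Ehd1, Ehd2 and Ehd4 had differences of 0.14 (SE 0.17), 0.08 (SE 0.29) and -0.28 (SE 0.21).

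Gpr182, an atypical chemokine receptor of sinusoidal endothelium, read 6.52, 6.19 and 6.87 in WT and 6.48, 6.43, 6.998, 6.37 and 6.53 in KO. Its WT values spread most of the 10 genes (SD 0.34, n = 3) and enclosed 4 of the 5 KO values. The difference was 0.03 (SE 0.19, adjusted p = 0.987), and -0.07 without KO array 3. Oit3, a secreted protein with a zona pellucida domain, read 7.51, 7.56 and 7.10 in WT and 7.37, 7.34, 7.28, 7.56 and 7.13 in KO. All KO values lay inside the WT range, with a difference of -0.05 (SE 0.15, adjusted p = 0.976).

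**Figure D2:**
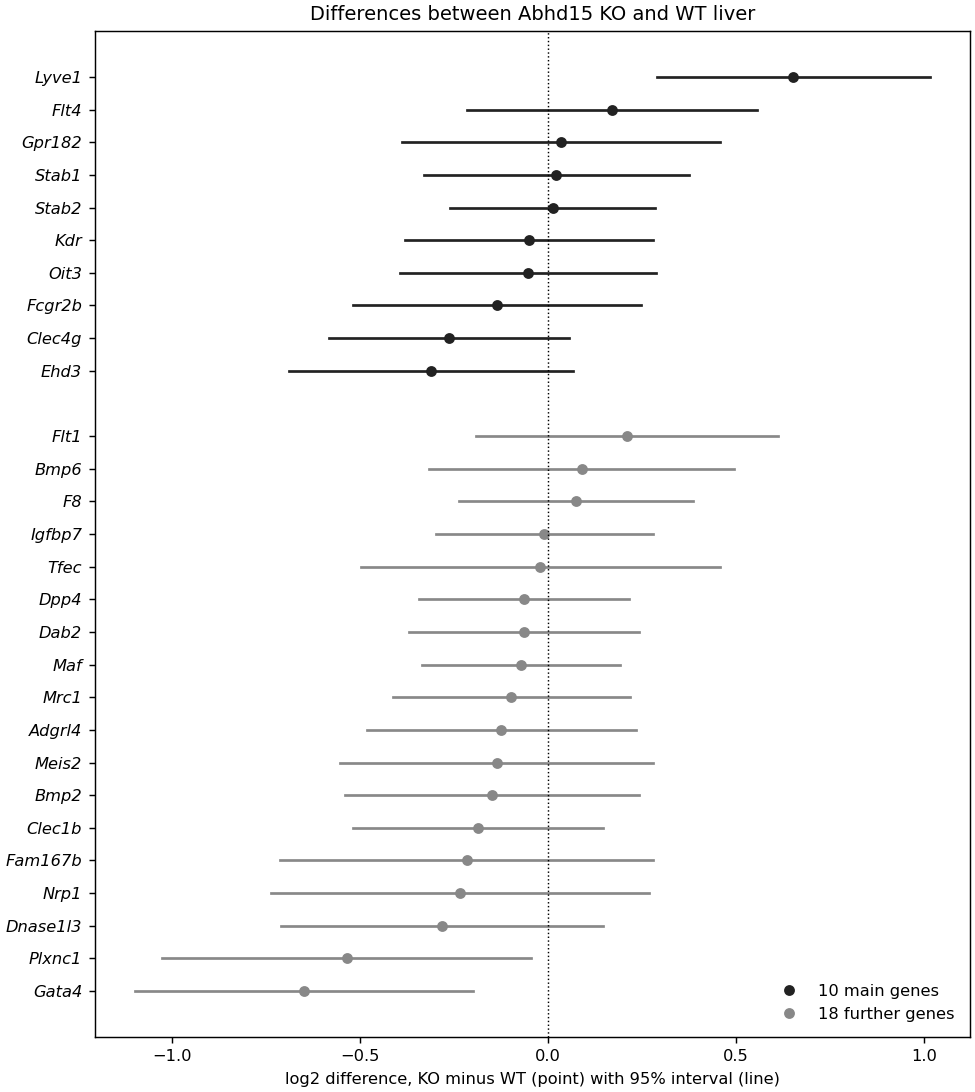
Log2 difference KO minus WT (horizontal axis) with its 95% interval from limma, not adjusted for the number of genes, for the 10 main genes and for 18 further genes of sinusoidal endothelium. Lyve1 is at 0.65, the other main genes lie from -0.31 to 0.17, and Gata4 and Plxnc1 have the lowest values of the further genes, -0.65 and -0.54.

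The 10 genes did not vary together from liver to liver. Deviations from the group means were correlated for each pair of genes over the 8 arrays, which share library preparation and normalization, so that r describes these arrays only. Of 45 pairs, 20 had a positive and 25 a negative r, with a median of -0.07. The closest pair was Fcgr2b and Kdr (r = 0.947, rho = 0.833), and r was 0.87 without KO array 1 and 0.739 without KO arrays 1 and 3. Ehd3 and Gpr182 followed with r = 0.803 (rho = 0.786), where KO array 3 was the highest for both. Stab1 and Clec4g had r = 0.768, which was 0.476 without KO arrays 2 and 4. Lyve1 ran opposite to Kdr (r = -0.763, rho = -0.548) and Fcgr2b (r = -0.793, rho = -0.524). The size of these r values rested largely on KO array 1, since r was -0.21 and -0.33 without it. With WT array 2 left out as well, r was -0.494 and -0.294.

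**Figure D3:**
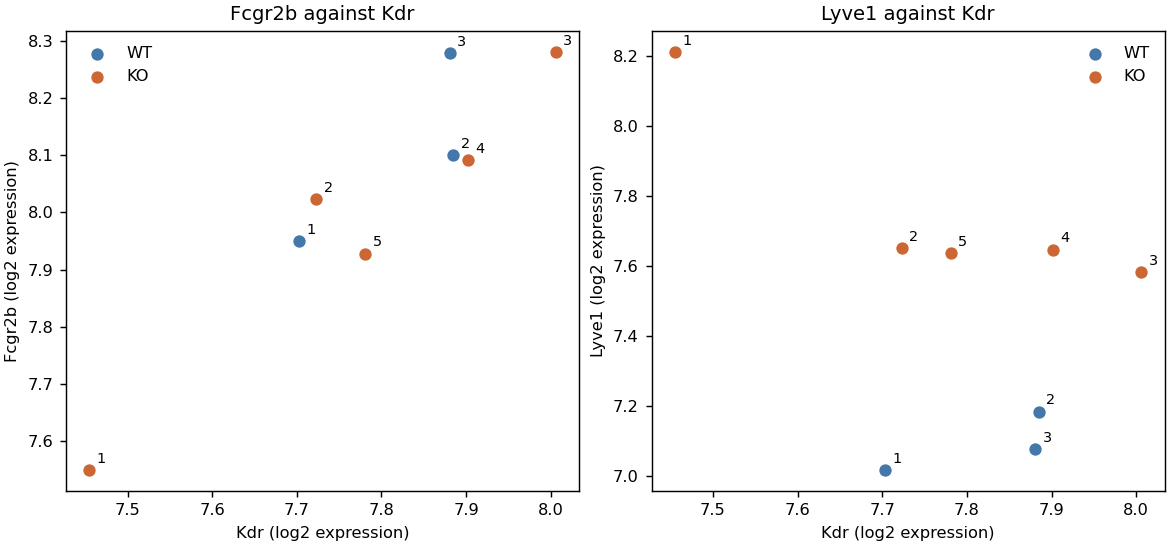
Log2 expression of Fcgr2b (left) and Lyve1 (right) against that of Kdr in each of 8 livers, with replicate numbers. Fcgr2b and Kdr lie along 1 line from KO array 1 to KO array 3, while Lyve1 separates KO from WT livers across the Kdr values that the genotypes share.

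The promoters of the closest pair, Fcgr2b and Kdr, and of the members with the lowest KO differences, Ehd3 and Clec4g, are shown so that genes that varied together can be compared with others in sequence. RefSeq's table for GRCm38.p6 held the window from 250 bases before to 50 after the gene start for 7 of the 10 genes. Each is written 5′ to 3′ on the gene's strand. Capitals mark matches on either strand to the words that GATA factors bind, which were AGATAA, the related word AGATAG, the word TGATAA with a leading T, and its relative TGATAG. Capitals also mark the words AGGAAG, and with a leading C the word CGGAAG, which ETS factors such as ERG bind. Neighbouring matches may overlap.
Fcgr2b, chr1:170976022-170976321, minus strand: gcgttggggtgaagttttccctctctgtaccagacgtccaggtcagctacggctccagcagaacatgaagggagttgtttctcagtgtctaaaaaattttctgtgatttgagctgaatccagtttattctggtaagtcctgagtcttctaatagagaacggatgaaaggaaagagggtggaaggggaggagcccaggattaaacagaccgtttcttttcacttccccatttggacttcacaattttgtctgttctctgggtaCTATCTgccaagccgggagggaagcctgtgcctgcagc
Kdr, chr5:75978406-75978705, minus strand: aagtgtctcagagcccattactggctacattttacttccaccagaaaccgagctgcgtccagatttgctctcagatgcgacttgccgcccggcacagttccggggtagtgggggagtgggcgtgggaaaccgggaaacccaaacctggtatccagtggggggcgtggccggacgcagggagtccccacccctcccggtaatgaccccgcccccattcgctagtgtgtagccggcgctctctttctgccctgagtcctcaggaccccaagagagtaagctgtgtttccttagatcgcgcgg
Ehd3, chr17:73804591-73804890, plus strand: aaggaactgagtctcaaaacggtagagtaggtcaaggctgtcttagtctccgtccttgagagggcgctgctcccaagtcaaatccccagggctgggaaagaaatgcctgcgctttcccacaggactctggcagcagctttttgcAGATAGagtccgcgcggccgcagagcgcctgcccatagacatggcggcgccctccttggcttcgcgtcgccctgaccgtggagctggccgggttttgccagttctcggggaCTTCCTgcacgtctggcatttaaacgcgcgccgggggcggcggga
Clec4g, chr8:3720602-3720901, minus strand: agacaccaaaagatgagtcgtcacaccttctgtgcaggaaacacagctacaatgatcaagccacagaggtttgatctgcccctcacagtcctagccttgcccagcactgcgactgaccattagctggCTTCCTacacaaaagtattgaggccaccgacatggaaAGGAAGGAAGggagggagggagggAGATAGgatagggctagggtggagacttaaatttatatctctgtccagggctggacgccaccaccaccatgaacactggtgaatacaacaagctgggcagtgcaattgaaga

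Fcgr2b had 1 GATA match, 13 bases from the start site on its downstream side, and no ETS match, and Kdr had neither. Ehd3 and Clec4g each had 1 GATA match, at -106 and -62, and Ehd3 had 1 ETS match and Clec4g 3. Among the other windows, Stab1 had 2 ETS matches, Stab2 had 1, and Flt4 had none of either kind. A GATA match was found in 3 of 7 members and in 29.8% of 32851 promoter windows of the same length, and an ETS match in 4 of 7 members and in 46.5% of the windows. A match is a word in the sequence and not a measured binding site.

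The genes most like Lyve1 in their deviations from the group means were, of 7689 other brighter clusters, Gadd45b (r = 0.985), Rcan1 (0.956), Ppp1r2 (0.939), Arpc5 (0.938) and Retreg3 (0.92), over 8 arrays. These are the highest of a wide search, in which 32 of the 7689 clusters (0.416%) had an r beyond 0.9 in either direction. Without centring on the groups, r was 0.486, 0.9, 0.783, 0.684 and -0.183 in that order. Gadd45b, a stress-induced gene, read 7.22 in KO array 1 and 5.50 to 6.25 elsewhere, and its r was 0.62 without KO array 1 and WT array 2. Rcan1, an inhibitor of calcineurin, read 7.07, 7.33 and 7.19 in WT and 9.22, 7.93, 7.23, 7.67 and 7.88 in KO, a difference of 0.79 (SE 0.36, adjusted p = 0.821), and its r was 0.812 without the same arrays. The r of Ppp1r2, Arpc5 and Retreg3 was then 0.299, 0.46 and 0.502, so that their likeness rested mainly on KO array 1 and WT array 2. The genes most like the mean of the 10 genes were Creb3 (r = 0.973), Pam (0.969), Rab31 (0.968), Cebpa (0.954) and Pdgfc (0.951), with 0.808, 0.929, 0.934, 0.92 and 0.7 when not centred. Without KO arrays 3 and 5 their r lay between 0.608, for Pdgfc, and 0.929, for Pam. For this mean, 42 of the 7689 clusters (0.546%) had an r beyond 0.9 in either direction.

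Of 18 further genes known from sinusoidal endothelium, 15 had a lower and 3 a higher KO mean, against 59.9% lower among the brighter clusters, with a median of -0.11. None passed limma's adjusted threshold (0 of 18), and 2 of 18 had an unadjusted p under 0.05, against 6.08% of all clusters. The mean of this list was 6.52, 6.47 and 6.53 in WT and 6.20, 6.31, 6.52, 6.33 and 6.50 in KO, where KO arrays 3 and 5 lay within the WT range. Without KO arrays 1 and 2, 13 of 18 were lower and the median was -0.03, against -0.04 over the brighter clusters. Whether this list differs from the 10 genes was not tested.

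Gata4, the transcription factor that specifies sinusoidal endothelium and is also present in stellate cells, had the largest of these differences. It read 6.95, 6.50 and 6.59 in WT and 5.96, 5.64, 6.18, 5.84 and 6.53 in KO. KO array 5 lay within the WT range and the other 4 KO arrays below it. The difference was -0.65 (SE 0.20, 95% interval -1.10 to -0.20, adjusted p = 0.795). Plxnc1, a semaphorin receptor, read 7.42, 7.47 and 7.26 in WT and 6.16, 6.76, 7.14, 7.04 and 7.15 in KO. All KO values lay below all WT values, which held for 2.44% of all clusters, and the difference was -0.54 (SE 0.22, adjusted p = 0.803). Dnase1l3, a secreted nuclease, read 7.06, 7.40 and 7.18 in WT and 6.73, 6.999, 7.48, 6.77 and 6.68 in KO, a difference of -0.28 (SE 0.19, adjusted p = 0.874).

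**Figure D4:**
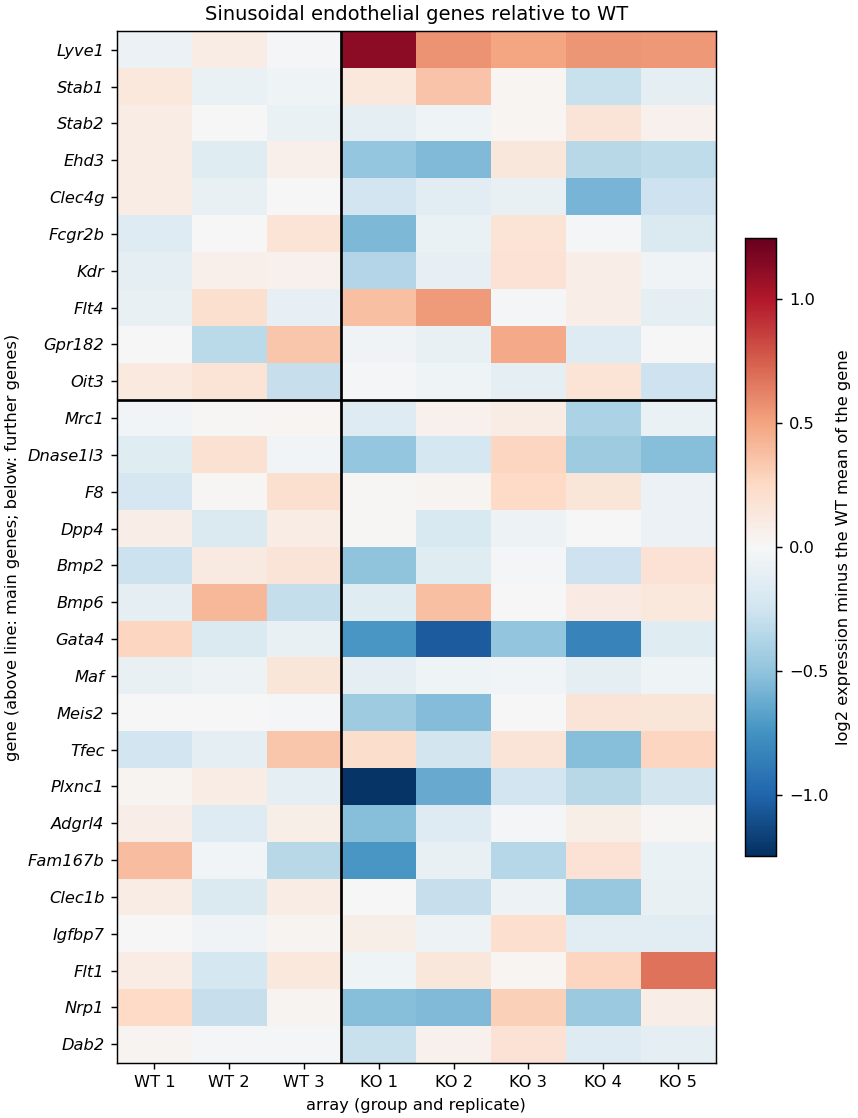
Log2 expression minus the WT mean of each gene (colour) in each of 8 arrays (columns) for the 10 main genes, above the line, and 18 further genes of sinusoidal endothelium. Lyve1 is above its WT mean in all 5 KO arrays, and Gata4 and Plxnc1 are below theirs.

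Genes of hyaluronan synthesis, breakdown and binding were mostly dim in liver, with 2 of 13 at a mean of at least 5, so little can be said of the ligand side of Lyve1. Of the 13, 8 had higher and 5 lower KO means, with a median of 0.05. Single arrays turned this count, to 8 of 13 lower (median -0.04) without WT array 2 and to 7 of 13 lower (median -0.05) without KO array 3. Cd44, a widely expressed cell-surface hyaluronan receptor, read 3.41, 3.39 and 3.84 in WT and 4.196, 3.93, 4.22, 3.71 and 3.76 in KO, a difference of 0.42 (SE 0.17, adjusted p = 0.804). Its groups overlapped through WT array 3. The synthases Has2 and Has3 had differences of -0.48 (SE 0.23) and 0.37 (SE 0.17) at means of 2.93 and 2.53, near the array medians, where signal above background is not shown.

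Signals that endothelium sends to hepatocytes, and genes that place endothelial cells along the lobule, gave 0 calls with limma's adjusted p, and an unadjusted p under 0.05 was found for 2 of 12 angiocrine, 2 of 6 pericentral, 0 of 7 portal and 1 of 8 flow-response genes, against 6.08% of all clusters, with Wnt2 counted in both of the first lists. Of 12 angiocrine genes 7 were higher and 5 lower (median 0.08, or 0.02 with 6 of 12 higher without KO arrays 1 and 2). Tgfb1, a growth-inhibitory cytokine made by several liver cell types, read 5.82, 5.71 and 5.69 in WT and 6.37, 6.25, 5.99, 6.05 and 6.07 in KO. All KO values lay above all WT values, which held for 1.99% of all clusters, and the difference was 0.41 (SE 0.13, adjusted p = 0.795). Wnt2, a ligand of central-vein endothelium, had a difference of 0.35 (SE 0.15, adjusted p = 0.804) at a mean of 3.51, and Hgf, made by stellate and endothelial cells, one of -0.29 (SE 0.17). Of 6 genes of pericentral endothelium 4 were higher and 2 lower (median 0.21), and 0 of the 6 had a mean of at least 5. Such a mean was reached by 4 of 12 angiocrine, 2 of 7 portal and 3 of 8 flow-response genes. Among the pericentral genes Kit, the stem cell factor receptor, had a difference of -0.59 (SE 0.26, adjusted p = 0.82) and Cdh13, an adhesion protein, one of 0.30 (SE 0.15). Of 7 genes of portal endothelium 6 were higher and 1 lower (median 0.12; 4 of 7 higher without KO arrays 1 and 2), with 0.31 (SE 0.19) for Ltbp4, 0.36 (SE 0.24) for Ntn4 and 0.31 (SE 0.25) for the Notch ligand Jag1. Of 8 genes of flow response and vessel tone 5 were higher and 3 lower (median 0.31, or 0.23 with 6 of 8 higher without KO arrays 1 and 2). The difference was 0.52 (SE 0.31) for Klf2, 0.45 (SE 0.17, adjusted p = 0.795) for Klf4 and 0.32 (SE 0.23) for Nos3, the endothelial nitric oxide synthase. Klf4 is also counted in the immediate early list.

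Markers of endothelium as a whole gave 8 higher and 12 lower KO means of 20, with a median of -0.06 (-0.00267, with 10 of 20 lower, without KO arrays 1 and 2) and list means of 5.37 to 5.51 in WT and 5.36 to 5.54 in KO. S1pr1, the receptor for sphingosine 1-phosphate, read 7.62, 8.09 and 8.21 in WT and 7.07, 7.22, 7.60, 7.69 and 7.58 in KO, a difference of -0.54 (SE 0.19, adjusted p = 0.795), with overlap through WT array 1 and KO array 4. The transcription factors Sox17 and Sox7 had differences of -0.35 (SE 0.24) and 0.37 (SE 0.24). Markers of continuous capillaries, which this endothelium largely lacks, were higher in 9 of 10 (median 0.11, and 0.17 with 7 of 10 higher without KO arrays 1 and 2). Over all clusters, 50.4% had a lower KO mean. Most of these markers were dim, with 2 of 10 at a mean of at least 5. The list mean lay from 3.86 to 3.92 in WT and from 3.90 to 4.31 in KO. Esm1, a secreted proteoglycan, read 4.63 and 4.76 in KO arrays 1 and 2 and 2.02 to 2.98 in all other arrays. Lama4, a basement membrane laminin, had a difference of 0.35 (SE 0.22), and Aplnr, the apelin receptor, one of 0.18 (SE 0.20). The means of Esm1 and Aplnr, 3.04 and 2.37, were near or below the array medians, where signal above background is not shown. Of 4 measured lymphatic markers 3 were higher and 1 lower (median 0.02). Prox1, the lymphatic master regulator that hepatocytes also make, had a difference of -0.29 (SE 0.19), Mmrn1 one of 0.06 (SE 0.18) at a mean of 2.83, near the array medians, and Reln, also made by stellate cells, one of 0.03 (SE 0.15).

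Kupffer cell markers, from the macrophages that sit in the sinusoids, varied widely among KO livers. Of 13, 8 were higher and 5 lower, with a median of 0.11, and the list mean was 6.09, 5.92 and 6.31 in WT and 6.55, 6.27, 6.72, 5.64 and 6.04 in KO. KO array 3 was the highest and KO array 4 the lowest, while Lyve1 read 7.58 and 7.65 in them. Without KO arrays 1 and 2, 7 of 13 were lower and the median was -0.00233. Single arrays moved these counts as well, to 12 of 13 higher with a median of 0.25 without KO array 4, and to 7 of 13 lower with a median of -0.02 without KO array 3. The median was 0.24 without WT array 3, 0.03 without WT array 1 or WT array 2, and 0.00358 without KO array 1. Marco, a scavenger receptor, had a difference of 0.70 (SE 0.49), Cd5l, a secreted macrophage protein, one of 0.45 (SE 0.32) and Cd68, a lysosomal protein, one of 0.25 (SE 0.21). The deviations of the Kupffer list went with those of Clec4g (r = 0.826), Gpr182 (r = 0.698) and Stab1 (r = 0.559) over 8 arrays. They ran opposite to those of Stab2 (r = -0.68) and Oit3 (r = -0.476), and r was 0.258 for Lyve1. Clec4g also went with the monocyte and neutrophil list (r = 0.752) and the hepatocyte list (r = 0.679). Stab1 went more closely with the immediate early list (r = 0.841) and the hepatocyte list (r = 0.818), and Gpr182 with the lymphatic list (r = 0.735). Stab2 ran more strongly opposite to the hepatocyte list (r = -0.829). The r values of these genes were therefore not particular to Kupffer cell markers. The part of Kupffer cell RNA in these values was not tested.

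**Figure D5:**
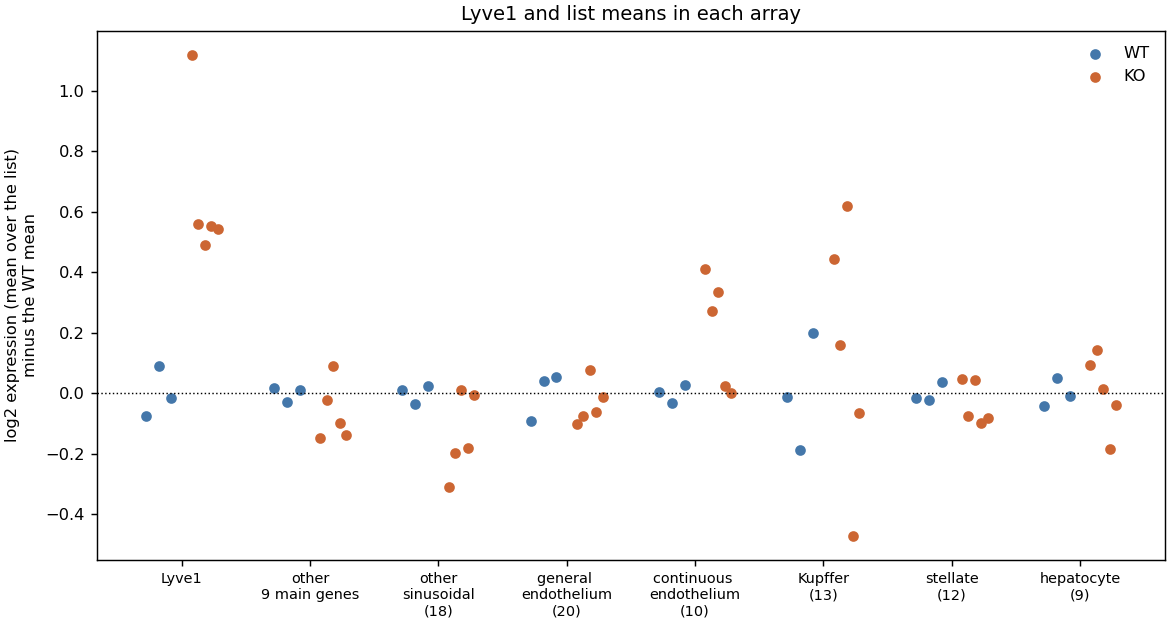
Log2 expression of Lyve1, and the mean over each gene list, minus the WT mean (vertical axis) in 3 WT and 5 KO arrays, with the number of genes in brackets. Lyve1 lies above WT in all KO arrays, and for each other list shown the KO points overlap the WT points.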

How the data were processed

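Liver RNA of 3 WT and 5 Abhd15 KO mice, 200 ng each, was measured on 1 array per sample, with groups and replicate numbers read from the titles. The authors deposited log2 expression values for 41345 transcript clusters. Per the submitters' processing notes RMA and oligo were used, and per the design text Expression Console. The sources used here do not give versions, settings or a build. Values from 0.409 to 13.27 fit a log2 scale. RMA as commonly run gives all arrays 1 distribution, which would hide a shift shared by all genes. Scan date and slide were not used here as batches.

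The platform annotation gave 1 symbol for 23521 clusters. KO minus WT was fitted with limma 3.58.1 in R 4.3.3 (lmFit and eBayes, 6 residual degrees of freedom), two-sided, with Benjamini-Hochberg adjustment. The number of arrays limits the precision. Tested on simulated data of the same design (23521 clusters), this fit recovered 3% of planted log2 changes of 0.5, 24.2% of 0.7, 52.8% of 1 and 93.2% of 2. The exact permutation test per gene, over 56 splits, cannot go below p = 0.0179 and is not given for genes chosen with these values known. The 10 genes and all lists were chosen with earlier results of these data known. Named were all 10 genes, the 3 genes with the smallest p of each other list, and the 5 genes with the highest r. Genes that a list could not match to a single-symbol cluster were not used here. Deviations of same-numbered WT and KO arrays correlated at -0.05, 0.02 and 0.02, so the numbers were not taken as pairs. Alternatives covered normalization, dim clusters, the variance model, array weights, all clusters, a replicate block and left-out arrays. Leaving arrays out of the list counts and of the correlations was added after seeing the data.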

Additional observations from a re-analysis of the deposited data

Results flagged for a closer look

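Among the 5 KO livers, single values far from the other 4 were looked for in 71 genes and list values by Dixon's test, which flags about 1 in 20 groups by chance. It marked 5. Lyve1 in KO array 1 read 8.21, with the other KO arrays at 7.58 to 7.65. Lyve1 minus the mean of the general endothelial markers in KO array 1 was 2.85, with the others at 2.05 to 2.27. Gpr182 in KO array 3 read 6.998, with the others at 6.37 to 6.53. Itgam, an integrin of myeloid cells, read 3.97 in KO array 3 against 3.21 to 3.39, and Nkg7, a protein of cytotoxic lymphocytes, 3.93 in KO array 3 against 3.09 to 3.32, both dim.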

How the results depend on the processing

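Over 16 alternatives the Lyve1 difference stayed between 0.53 and 0.72, with adjusted p from 0.358 to 0.973, and 0 of the 10 genes passed under any of them. The lowest adjusted p came with dim clusters left out and the highest without WT array 2. With a replicate block the Lyve1 difference was 0.72 (adjusted p = 0.594), 6 of 10 genes were lower, and the number of all clusters past the threshold was 1. That number was also 1 with dim clusters left out and 3 with trend and robust settings, against 0 otherwise. The sign turned for 6 of the 10 genes under at least 1 alternative. Stab2 became -0.0473 with the replicate block. Without KO arrays 1 and 2, Stab1 became -0.123, Kdr 0.0733 and Flt4 -0.0173. Leaving out 1 array at a time, Stab1 ran from -0.0598 to 0.0974, Stab2 from -0.0303 to 0.0582, Kdr from -0.11 to 0.03, Gpr182 from -0.13 to 0.21 and Oit3 from -0.199 to 0.0312. The cause of these turns was not tested. Ehd3, Clec4g and Fcgr2b stayed below 0 in all 16 alternatives. The median over the 10 genes stayed between -0.06 and 0.02. A second cluster per gene could not be tried, since each gene has 1. On simulated data of this size 3% of log2 changes of 0.5 were called, so most differences seen here are below what 3 and 5 arrays can call.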

Other observations

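Markers of other liver cells were read on the same arrays. Of 12 stellate cell markers 5 were higher and 7 lower in the KO mean (median -0.11, or -0.06 without KO arrays 1 and 2), with list means of 6.20 to 6.26 in WT and 6.13 to 6.27 in KO. Lrat, which stores retinol as esters in stellate cells, read 6.725, 6.83 and 6.82 in WT and 6.28, 6.43, 6.722, 6.33 and 6.49 in KO. The difference was -0.34 (SE 0.14, adjusted p = 0.795). All KO values lay below WT, but KO array 3 only just below WT array 1, and such a separation held for 2.44% of all clusters. Acta2, the smooth muscle actin of activated stellate cells, had a difference of 0.49 (SE 0.29). Of 9 measured hepatocyte markers 5 were higher and 4 lower (median 0.03), and 3 were higher and 6 lower without KO arrays 1 and 2 (median -0.04). The difference was 0.21 (SE 0.12) for the aminotransferase Tat, -0.31 (SE 0.25) for Ass1 and 0.09 (SE 0.12) for the fibrinogen chain Fgb. The Ass1 cluster was dim, with a mean of 4.14, while 8 of the 9 markers had a mean of at least 5. Whether that cluster reads Ass1 well was not tested.

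Most markers of other blood cells and bile ducts were dim, with a mean of at least 5 for 1 gene each of the monocyte and neutrophil, B cell and bile duct lists and for 0 of 6 T and NK cell genes. Without KO arrays 1 and 2 the medians were -0.10, -0.13, 0.07 and 0.02 in that order, with 6 of 7, 4 of 4, 2 of 5 and 2 of 6 genes lower. Of 7 monocyte and neutrophil markers 3 were higher and 4 lower (median -0.01), with -0.23 (SE 0.16) for Ccr2, 0.17 (SE 0.19) for Itgam and -0.21 (SE 0.19) for Itgax. Of 6 T and NK cell markers 3 were higher and 3 lower (median 0.03), with 0.28 (SE 0.24) for Cd8a, 0.31 (SE 0.19) for Nkg7 and 0.10 (SE 0.15) for Gzma. Of 4 B cell markers 1 was higher and 3 lower (median -0.07), with -0.13 (SE 0.20) for Cd79b, -0.13 (SE 0.18) for Ms4a1 and 0.09 (SE 0.19) for Ighm. Of 5 bile duct markers 2 were higher and 3 lower (median -0.00467), with 0.26 (SE 0.14) for Krt19, -0.42 (SE 0.19) for Epcam and 0.12 (SE 0.26) for Cftr. Of 5 listed erythroid genes, 0 had a single-symbol cluster. In the immediate early list Jun had a difference of 0.79 (SE 0.32) and Atf3 one of 0.85 (SE 0.32).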
